A study of Drosophila melanogaster with 17 samples.

Results

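The genes described here are the translation factors and aminoacyl-tRNA synthetases of Drosophila melanogaster, taken as every gene whose symbol in the count table begins with Aats-, eIF or Ef1, apart from eIF4AIII and eIF4G. The rule used names only and found 51 of 13872 listed genes, namely 21 synthetases (Aats-), 26 factors with an eIF symbol and 4 elongation factors (Ef1). They were measured by mRNA-seq in pooled, hand-dissected central nervous systems (CNS) of larvae late in the third instar. X7/C24 larvae carried the deletion Df(3L)Smn X7 on the chromosome that also held the hairpin UAS-Smn RNAi C24, C24 larvae carried the hairpin alone, and WT larvae carried the control insert UAS-PWIZ. All 3 genotypes carried the elav-GAL4 driver, which acts in neurons, so the hairpin was aimed at only part of the cells in each sample. The study set out to measure expression changes in models of spinal muscular atrophy, the motor neuron disease that follows from loss of the SMN protein. Each main comparison used 3 libraries a genotype: X7/C24 replicates 1 to 3, C24 replicates 5 to 7 and WT replicates 4 to 6. X7/C24 was sequenced in a round of its own, so genotype and round cannot be told apart wherever X7/C24 is compared.

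A synthetase joins 1 kind of amino acid to its tRNA, and separate nuclear genes often serve the cytosol and the mitochondrion. Initiation begins when eIF2 delivers the initiator tRNA to the small ribosomal subunit. eIF2B recharges eIF2 with GTP, eIF3 holds the initiation complex together, and the eIF4 factors recruit it to the capped mRNA. eIF-1A and eIF5 act during scanning and start codon choice, eIF5B joins the large subunit, and eIF6 keeps free large subunits apart from small ones. In elongation, eEF1A (Ef1alpha48D and Ef1alpha100E) brings charged tRNA to the ribosome, Ef1beta and Ef1gamma belong to its exchange complex, and eIF-5A helps the ribosome past difficult peptide bonds. Phosphorylation of eIF2 by stress kinases blocks eIF2B, and Thor, the fly 4E-BP, blocks the cap-binding protein eIF-4E.

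The 9 libraries compared held 16800165 to 28339670 read counts, and the members took 1.64% to 1.94% of them. Smn itself, the targeted gene, stood at 29.9, 28.9 and 28.8 CPM (counts scaled to a common library total) in X7/C24 replicates 1 to 3, at 54.2, 65.5 and 54.2 CPM in C24 replicates 5 to 7, and at 65.5, 67.0 and 61.3 CPM in WT replicates 4 to 6. The X7/C24 libraries lay below all others, and C24 overlapped WT. Its log2 fold change was -1.15 ± 0.06 (SE) in X7/C24 vs WT and -0.16 ± 0.10 in C24 vs WT, with adjusted p of 1.0e-05 and 0.74 by edgeR's quasi-likelihood test. The study set aside WT replicates 1 and 2 and C24 replicate 1 for RNA of other tissues, left X7/C24 replicate 4 out for its many duplicate reads, and advised against further use of WT replicate 3 and C24 replicate 3, where the GAL4 transgene was lower. It also ran C24 vs WT without WT replicate 5 and C24 replicate 6. Their wider spread seemed to the authors to come from a fairly small amount of RNA from outside the CNS. The study kept WT replicate 5 for X7/C24 vs WT, and both libraries are among those compared here. Levels below are CPM after TMM scaling, or RPKM (CPM per kilobase of exon) where genes are compared with each other.

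Per length, the elongation factors were the most abundant members and the synthetases of the mitochondrion were among the least. Ef1alpha48D averaged 1694 ± 154 RPKM in X7/C24, 1614 ± 14.1 RPKM in C24 and 1670 ± 50.0 RPKM in WT (SD, n = 3 each). Its paralog Ef1alpha100E averaged 740 ± 45.5 RPKM in X7/C24, 668 ± 16.5 RPKM in C24 and 656 ± 30.9 RPKM in WT. In WT the next levels were those of the helicase eIF-4a at 561 ± 35.9 RPKM, of Ef1gamma at 551 ± 3.96 RPKM and of eIF-5A at 459 ± 59.4 RPKM. The first pair of these differed by less than the spread between libraries. The 15 cytosolic synthetases ran in WT from Aats-thr (106 ± 1.83 RPKM) to Aats-cys (25.9 ± 1.24 RPKM). Among the 6 mitochondrial synthetases Aats-phe was highest (29.1 ± 1.45 RPKM) and Aats-met lowest (4.12 ± 0.0806 RPKM).

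**Figure D1:**
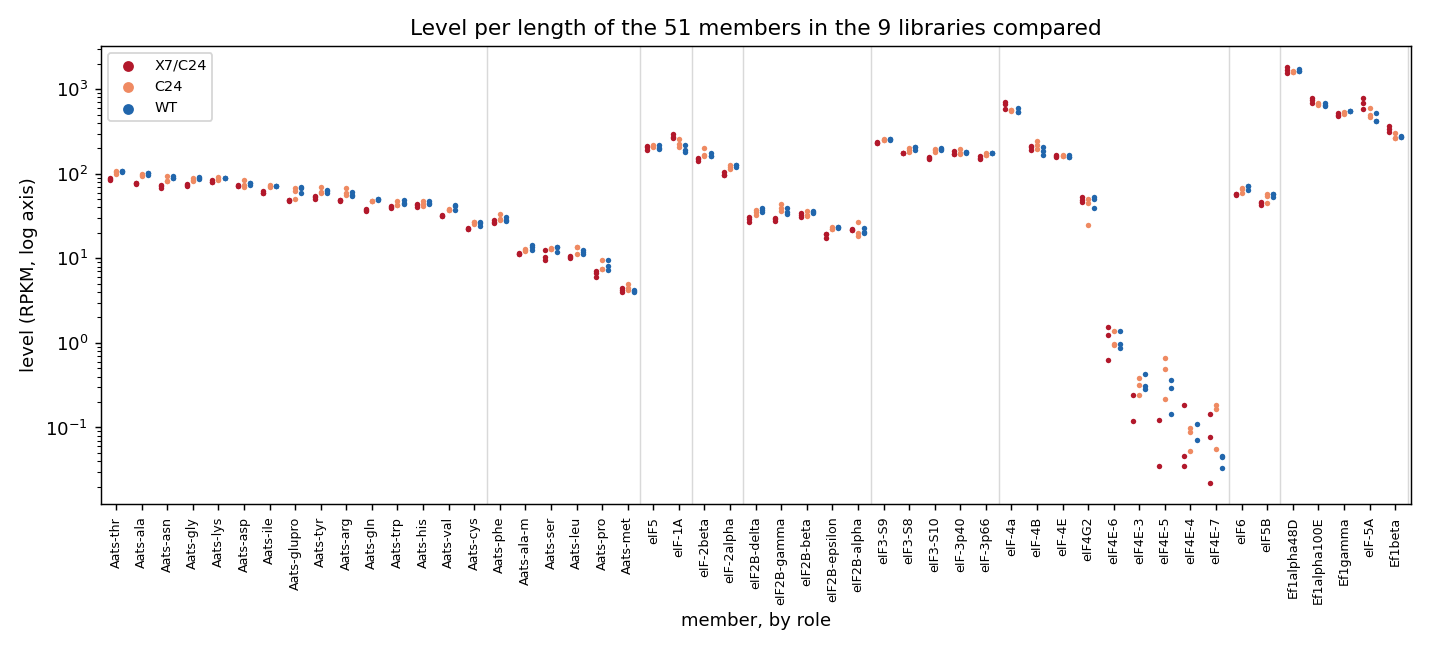
Level of each of the 51 members in RPKM on a log axis, grouped by role, with 1 point for each of the 9 libraries compared (X7/C24 red, C24 orange, WT blue; values of 0 are not drawn). Ef1alpha48D leads at 1670 RPKM in WT, and 5 eIF4E paralogs lie at the bottom, far under eIF-4E at 161 RPKM.

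The cap-binding family differed most within itself. eIF-4E averaged 163 ± 3.59 RPKM in X7/C24, 163 ± 2.25 RPKM in C24 and 161 ± 5.98 RPKM in WT. Of its paralogs, eIF4E-6 averaged 1.14 ± 0.473 RPKM in X7/C24, 1.10 ± 0.241 RPKM in C24 and 1.08 ± 0.282 RPKM in WT, and it was the only one of the 5 with enough counts to be tested. eIF4E-4 and eIF4E-7 had fewer than 10 counts in every second-round library. eIF4E-3 and eIF4E-5 held at most 16 and 15 counts in any of the 17 libraries. These 4 genes fell below the filter on low counts and were not tested in the main fits. eIF4E-5 had 2, 0 and 1 counts in X7/C24 and 4, 15 and 10 counts in C24, and it was called lower in X7/C24 vs C24 by edgeR in 2 fits that kept it, with at least 1 count (adjusted p = 0.044) and without C24 replicate 5 (adjusted p = 0.035). It did not pass in the 3 fits that kept it and left out 1 X7/C24 library (adjusted p of 0.056 to 0.14, edgeR). Counts below are of the 47 members tested unless another fit is named.

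In X7/C24 vs WT, 25 of the 47 members fell and 3 rose, where 21.2% of the 9657 genes tested were called lower and 21.2% higher. The members that fell were mainly cytosolic synthetases and subunits of eIF2, eIF2B and eIF3, and the changes were small, at most 27.4% (Aats-glupro). The median log2 fold change of the members was -0.20, against -0.00 over all genes tested. The size of the background shows how widely X7/C24 and WT libraries differed. Bulk tissue does not separate fewer cells of a type from less RNA per cell. For 28 of the 47 members, called or not, each of the 3 X7/C24 libraries lay below each of the 3 WT libraries, where 26.4% of all genes were arranged that way. Aats-lys, eIF-2beta and Aats-leu, the smallest of the falls with Aats-trp and Aats-cys, lost the call in 10, 9 and 8 of 16 alternative fits. Leaving out 1 library was enough: WT replicate 4 or 6 or X7/C24 replicate 2 for all 3 of them, X7/C24 replicate 1 for eIF-2beta and Aats-leu, X7/C24 replicate 3 for Aats-lys, and WT replicate 5 for eIF-2beta. Aats-trp lost its call without WT replicate 4 or X7/C24 replicate 2, eIF3-S8 without WT replicate 4 or 6, and Aats-cys without WT replicate 6. Over the 6 libraries left out in turn, 20 to 26 members were lower and 3 to 6 higher.

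Among the cytosolic synthetases, 13 of 15 fell in X7/C24 vs WT and none rose, with a median of -0.26. Aats-gln, the glutaminyl-tRNA synthetase, stood at 93.2, 89.7 and 91.7 CPM in X7/C24 and at 123, 119 and 125 CPM in WT. The groups did not overlap, and the log2 fold change was -0.42 ± 0.04 (SE; adjusted p = 0.00030, edgeR). Aats-glupro, a single protein that charges both glutamate and proline tRNAs, stood at 267, 257 and 269 CPM in X7/C24 and at 375, 327 and 385 CPM in WT. WT replicate 5 was the lowest of its group and still above every X7/C24 library (-0.46 ± 0.07, adjusted p = 0.0013, edgeR). Aats-ala had 258, 253 and 252 CPM in X7/C24 and 339, 321 and 334 CPM in WT. The 3 X7/C24 values lay close together and well under the WT range (-0.39 ± 0.05, adjusted p = 0.00067, edgeR).

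Aats-asn had 177, 164 and 170 CPM in X7/C24 and 214, 224 and 213 CPM in WT (-0.36 ± 0.05). Aats-val had 111, 108 and 109 CPM in X7/C24 and 144, 126 and 147 CPM in WT (-0.35 ± 0.06). Neither gene's groups overlapped, and WT replicate 5 was the highest of its group for Aats-asn and the lowest for Aats-val. The other 8 that fell (Aats-gly, Aats-thr, Aats-ile, Aats-arg, Aats-tyr, Aats-cys, Aats-trp and Aats-lys) lay between -0.29 and -0.14. The 2 that did not pass were Aats-his at -0.13 ± 0.06 and Aats-asp at -0.08 ± 0.05, with adjusted p of 0.11 and 0.19 by edgeR's test. Of the 6 mitochondrial synthetases 2 fell, Aats-ala-m (-0.27 ± 0.06) and Aats-leu (-0.20 ± 0.06), while Aats-pro at -0.33 ± 0.12, Aats-ser at -0.26 ± 0.11, Aats-phe at -0.10 ± 0.06 and Aats-met at 0.04 ± 0.07 did not pass. These 6 genes had at most 59.6 CPM in any library outside the pair of pilot libraries WT 2 and C24 1. Aats-pro and Aats-ser had the largest standard errors of the 6.

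**Figure D2:**
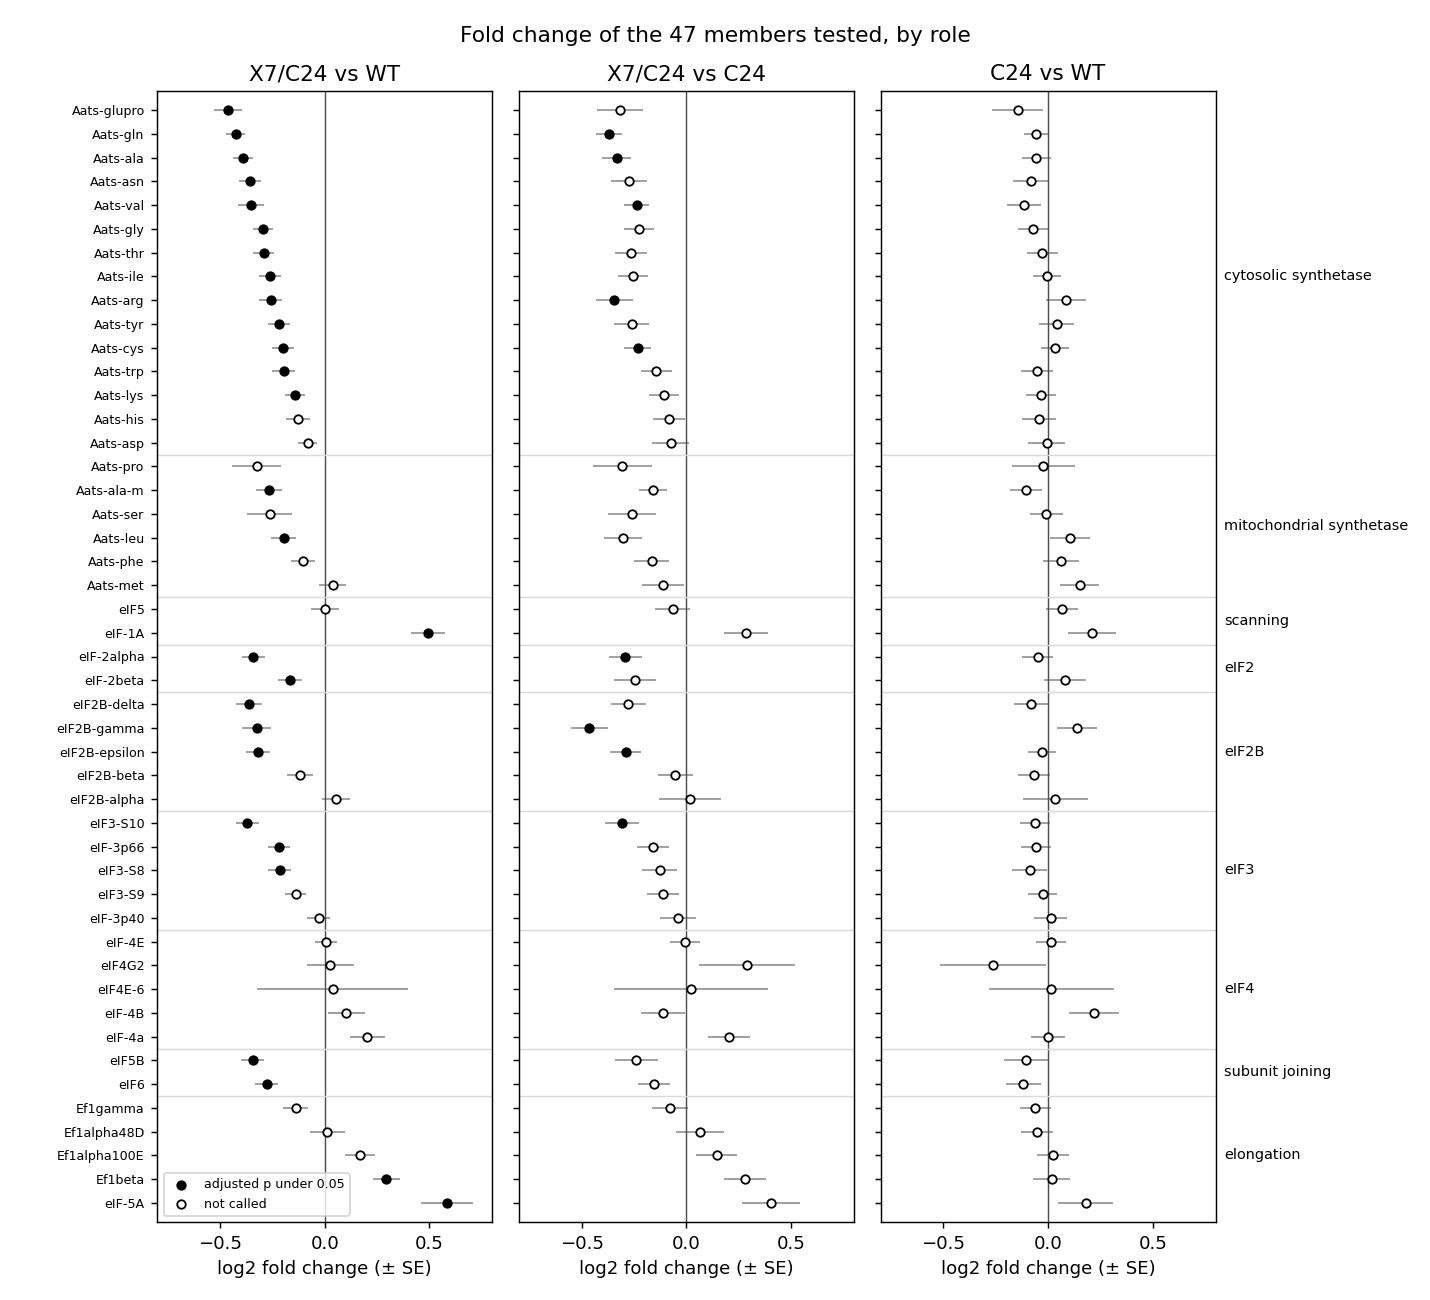
Log2 fold change (horizontal axis, with its SE) of the 47 members tested, by role, in X7/C24 vs WT, X7/C24 vs C24 and C24 vs WT; filled points passed an adjusted p of 0.05. In X7/C24 vs WT the filled points are 25 to the left of 0 and 3 to the right, with 9 to the left in X7/C24 vs C24 and none in C24 vs WT.

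Both measured subunits of eIF2 fell in X7/C24 vs WT. eIF-2alpha, the subunit that stress kinases phosphorylate, stood at 160, 146 and 147 CPM in X7/C24 and at 192, 195 and 184 CPM in WT (-0.34 ± 0.05, adjusted p = 0.0019, edgeR). eIF-2beta changed less (-0.17 ± 0.06). Of the 5 subunits of eIF2B, 3 fell and the other 2 did not pass. eIF2B-epsilon and eIF2B-gamma form the catalytic part of the exchange factor. eIF2B-gamma had 47.0, 43.0 and 44.9 CPM in X7/C24 and 52.2, 60.8 and 55.4 CPM in WT (-0.32 ± 0.07, adjusted p = 0.0065, edgeR). eIF2B-epsilon had 47.0, 42.8 and 47.5 CPM in X7/C24 and 57.2, 55.3 and 57.9 CPM in WT (-0.32 ± 0.06). The groups were separate for both.

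eIF2B-delta, a regulatory subunit, had 67.4, 63.6 and 59.0 CPM in X7/C24 and 84.9, 76.7 and 80.7 CPM in WT (-0.36 ± 0.06). The other regulatory subunits, eIF2B-beta (-0.12 ± 0.06) and eIF2B-alpha (0.05 ± 0.07), overlapped WT. eIF3-S10, the large eIF3a subunit, stood at 612, 588 and 594 CPM in X7/C24 and at 791, 746 and 771 CPM in WT (-0.37 ± 0.05, adjusted p = 0.0013, edgeR). Of the other eIF3 members, eIF-3p66 (-0.22 ± 0.05) and eIF3-S8 (-0.22 ± 0.06) also fell, eIF3-S9 was at -0.14 ± 0.05 and eIF-3p40 at -0.03 ± 0.05. eIF5B had 198, 188 and 203 CPM in X7/C24 and 252, 237 and 255 CPM in WT (-0.34 ± 0.05), and eIF6 fell as well (-0.28 ± 0.05). The 25 members that fell sat on all 5 large chromosome arms.

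No member of the eIF4 group passed the test in X7/C24 vs WT, from eIF-4E at 0.01 ± 0.05 to eIF-4a at 0.20 ± 0.08. eIF-4E was also the most even of them, at 372, 364 and 356 CPM in X7/C24 and at 353, 376 and 353 CPM in WT. eIF-4a stood at 1731, 1641 and 1453 CPM in X7/C24 and at 1331, 1492 and 1347 CPM in WT, and the groups overlapped. The GTPase activator eIF5 differed as little (0.00 ± 0.07).

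The 3 members that rose were eIF-5A, eIF-1A and Ef1beta. eIF-5A had 639, 561 and 475 CPM in X7/C24 and 344, 426 and 342 CPM in WT (0.58 ± 0.12, adjusted p = 0.0063, edgeR). eIF-1A had 512, 475 and 459 CPM in X7/C24 and 327, 380 and 314 CPM in WT (0.49 ± 0.08, adjusted p = 0.0024, edgeR). Ef1beta had 351, 324 and 298 CPM in X7/C24 and 262, 268 and 259 CPM in WT (0.29 ± 0.07, adjusted p = 0.0081, edgeR). The groups were separate for all 3. Over all members only 4 of 47 lay higher in X7/C24 without overlap, against 27.0% of all genes, and 3 of 47 were called higher, against 21.2% of all genes. These genes are short, with a median exon length of 960 bases against 2375 over the members tested and 2453 over those that fell. In a fit chosen after seeing the data, with each library's trend on exon length removed, 27 of the 28 calls held. In that fit 25 members were lower and 5 higher. The trend was drawn from the same libraries, where round and genotype cannot be told apart. The other elongation factors were at 0.17 ± 0.07 (Ef1alpha100E), 0.01 ± 0.08 (Ef1alpha48D) and -0.14 ± 0.06 (Ef1gamma), and none passed.

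The eEF1A paralogs encode nearly the same protein, and reads that matched more than 1 place were not counted. Their ratio per length (Ef1alpha100E over Ef1alpha48D) was 0.425, 0.436 and 0.452 in X7/C24, 0.425, 0.399 and 0.417 in C24, and 0.386, 0.399 and 0.392 in WT. X7/C24 replicates 1 to 3 lay above the C24 and WT libraries given here, but X7/C24 replicate 1 exceeded C24 replicate 5 only beyond the third digit, and X7/C24 replicate 4, at 0.375, lay below all 6. C24 replicate 6 likewise exceeded WT replicate 5 only beyond the third digit. Each of the 3 pairwise differences gave an exact two-sided permutation p of 0.10, the smallest that 3 against 3 can give.

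**Figure D3:**
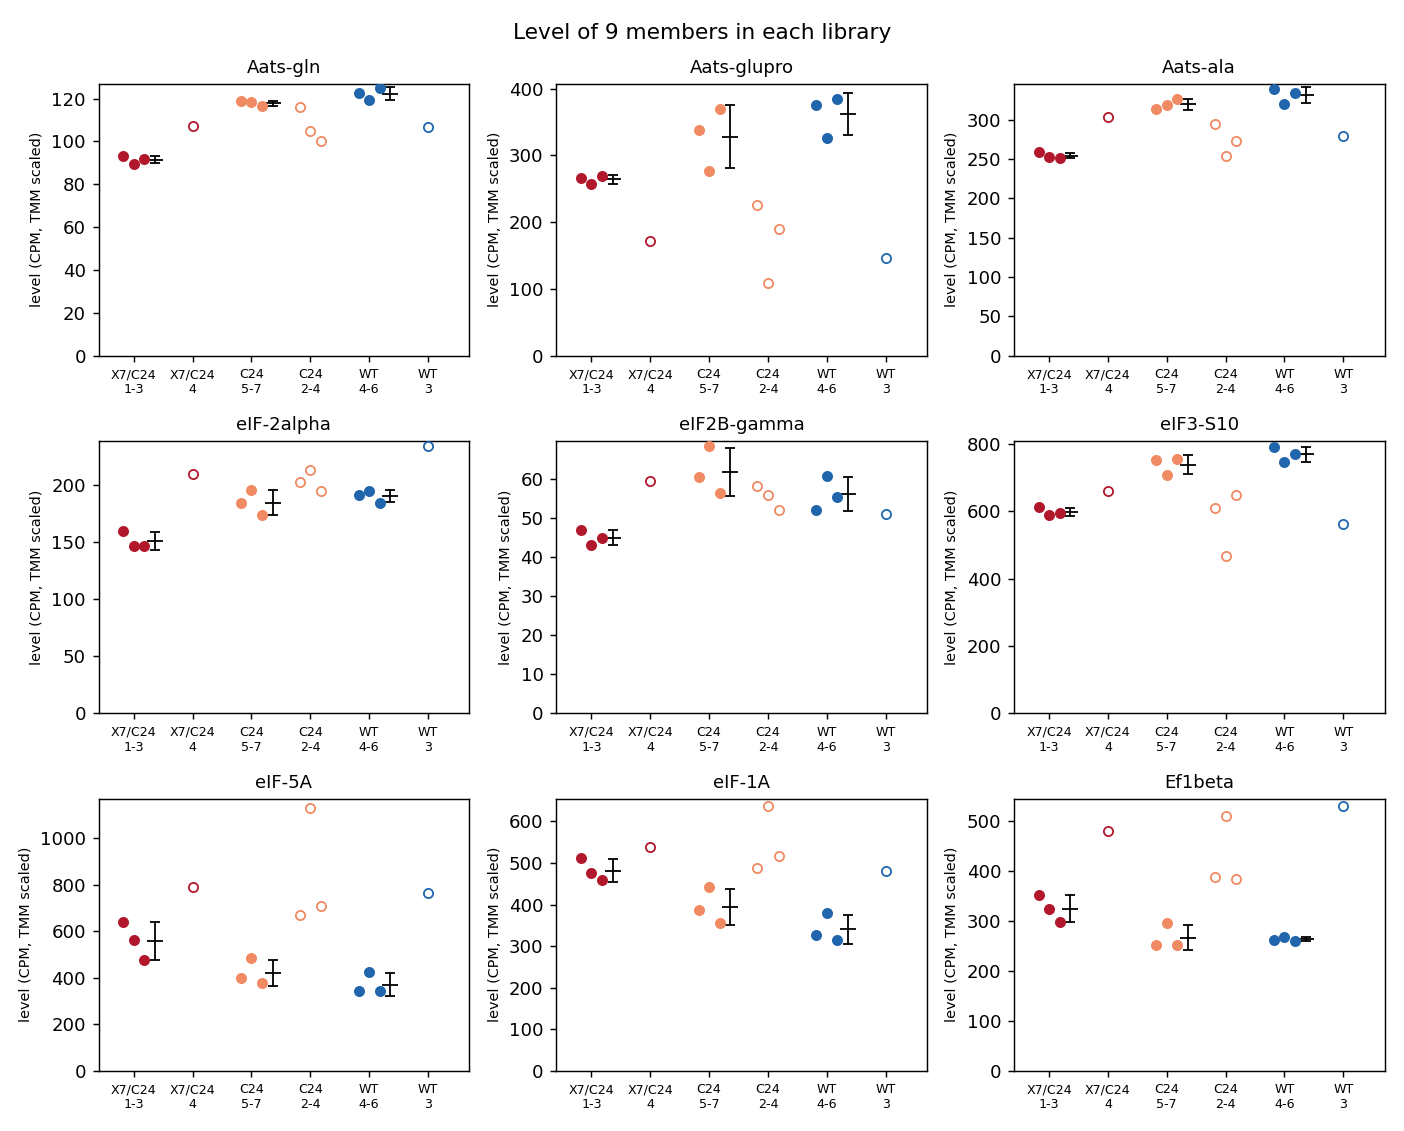
Level (CPM after TMM scaling, axis from 0) of 9 members in each library; filled points are the 9 libraries compared, with their mean ± SD beside them, and open points are X7/C24 replicate 4, C24 replicates 2 to 4 and WT replicate 3. Aats-gln lies at 89.7 to 93.2 CPM in X7/C24 replicates 1 to 3 and higher in every other library drawn, whereas the open WT point lies at 765 CPM for eIF-5A, above all filled points.

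X7/C24 vs C24 asks what the deletion adds to the hairpin, and here 9 of 47 members fell and none rose, where 5.94% of the 9454 genes tested were called lower and 7.59% higher. This comparison shares its X7/C24 libraries with the one above and gives no independent evidence. The 9 were Aats-gln, Aats-ala, Aats-val, Aats-arg, Aats-cys, eIF-2alpha, eIF2B-gamma, eIF2B-epsilon and eIF3-S10. The median of the members was -0.16, against 0.01 over all genes. eIF2B-gamma had 47.0, 43.0 and 44.9 CPM in X7/C24 and 60.5, 68.4 and 56.5 CPM in C24 (-0.46 ± 0.09, adjusted p = 0.016, edgeR). Aats-gln had 93.2, 89.7 and 91.7 CPM in X7/C24 and 119, 118 and 116 CPM in C24 (-0.37 ± 0.06, adjusted p = 0.0093, edgeR). The groups did not overlap for either. For eIF2B-gamma the C24 libraries differed among themselves by more than the gap to X7/C24.

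Aats-arg had 105, 101 and 104 CPM in X7/C24 and 127, 145 and 119 CPM in C24 (-0.34 ± 0.09). Aats-ala had 258, 253 and 252 CPM in X7/C24 and 314, 318 and 327 CPM in C24 (-0.33 ± 0.07). Both genes were separate between the groups, with C24 replicate 6 the highest for Aats-arg. eIF3-S10 had 612, 588 and 594 CPM in X7/C24 and 752, 708 and 757 CPM in C24 (-0.31 ± 0.08). eIF-2alpha had 160, 146 and 147 CPM in X7/C24 and 184, 196 and 174 CPM in C24 (-0.29 ± 0.08). eIF2B-epsilon had 47.0, 42.8 and 47.5 CPM in X7/C24 and 54.7, 58.3 and 54.3 CPM in C24 (-0.29 ± 0.07). These 3 genes did not overlap either. Aats-val had 111, 108 and 109 CPM in X7/C24 and 128, 128 and 130 CPM in C24 (-0.24 ± 0.06), and Aats-cys had 56.6, 55.2 and 55.0 CPM in X7/C24 and 63.3, 65.6 and 66.6 CPM in C24 (-0.23 ± 0.06). Their C24 libraries differed among themselves by less than the gap to X7/C24.

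The calls of X7/C24 vs C24 were fragile. Without any single one of the 3 X7/C24 libraries, none of the 9 remained called by edgeR. Without C24 replicate 5, 4 members were called, eIF4E-5 among them, and without C24 replicate 7, 3 were. Without C24 replicate 6, 18 members were lower and 3 higher, and with all 9 libraries in a joint fit 16 were lower and 1 higher. In the main fit 38 of 47 members were below 0, among them all 21 synthetases, and for 27 of 47 members every X7/C24 library lay below every C24 library, where 19.4% of all genes did.

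C24 vs WT asks what the neuronal hairpin alone does, and no member was called, where 0.394% of the 9394 genes tested were (37 genes). No member had an unadjusted p under 0.05 by edgeR, against 7.31% of all genes, and DESeq2 and limma-voom also called 0 members. The median SE of the members' log2 fold changes was 0.08 here and 0.06 in X7/C24 vs WT. With only 37 genes called, the adjusted threshold was also harder to pass. A fall of the size of most calls in X7/C24 vs WT could therefore have gone uncalled in C24 vs WT. The median of the members was -0.03, and they ran from eIF4G2 at -0.26 ± 0.25 to eIF-4B at 0.22 ± 0.12. eIF4G2, the paralog of the scaffold eIF4G, had 413, 228 and 457 CPM in C24 and 465, 356 and 490 CPM in WT. C24 replicate 6 and WT replicate 5 were the lowest of their groups, and the groups overlapped. eIF-4B had 419, 470 and 374 CPM in C24 and 358, 403 and 322 CPM in WT, and eIF-1A had 386, 441 and 356 CPM in C24 and 327, 380 and 314 CPM in WT (0.21 ± 0.11). In both genes the same 2 libraries were the highest of their groups.

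The libraries outside the comparisons did not all follow their labels. Over the 15 cytosolic synthetases, the median log2 difference from the mean of WT replicates 4 to 6 was -0.23, -0.28 and -0.27 in X7/C24 replicates 1 to 3. It was 0.03 in X7/C24 replicate 4, between -0.09 and 0.04 in C24 replicates 2 to 7, and 0.09 in WT replicate 3. So X7/C24 replicate 4 did not share the lower level of the other 3 X7/C24 libraries in these synthetases. With it included, X7/C24 vs WT called 4 members (Aats-gln, Aats-val and eIF2B-delta lower, eIF-1A higher) and 761 genes in all. X7/C24 vs C24 then called no member (33 genes in all). The 25 members lower in X7/C24 vs WT were picked through X7/C24 replicates 1 to 3, where their median was -0.25, -0.30 and -0.29. The same median was -0.06 in X7/C24 replicate 4, -0.02, -0.20 and -0.17 in C24 replicates 2 to 4, and -0.17 in WT replicate 3. In C24 replicates 5 to 7 it was -0.06, 0.03 and -0.02.

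**Figure D4:**
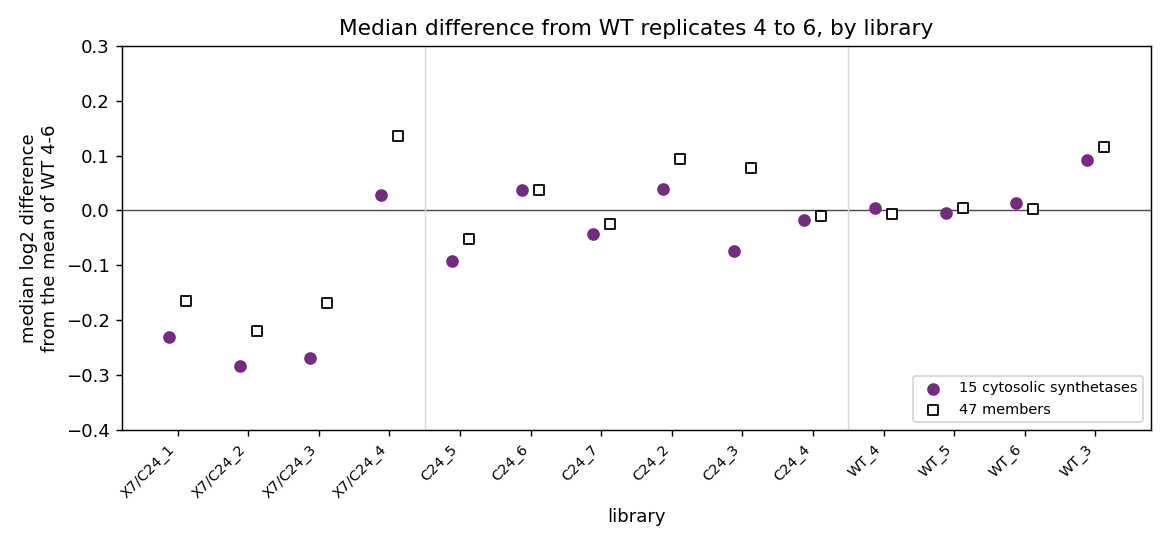
Median log2 difference of each library from the mean of WT replicates 4 to 6, over the 15 cytosolic synthetases (filled circles) and over all 47 members tested (open squares). X7/C24 replicates 1 to 3 lie at -0.28 to -0.23 for the synthetases, X7/C24 replicate 4 at 0.03, and the 6 C24 and 4 WT libraries drawn between -0.09 and 0.09.

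Single members also moved among libraries of 1 genotype. Of the 25 members lower in X7/C24 vs WT, 12 lay below every one of WT replicates 4 to 6 in X7/C24 replicate 4 and 9 lay above them. In WT replicate 3, a pilot library, 14 of the 25 lay below every one of WT replicates 4 to 6 and 10 above. The median exon length was 3261 bases for those 14 and 1892 for those 10. In C24 replicates 2, 3 and 4, 12, 16 and 16 of the 25 lay below WT replicates 4 to 6, and 10, 8 and 2 above. These positions were not counted over all genes, so they do not show whether the members differ from other genes. Aats-glupro, with 5453 exon bases, was at 171 CPM in X7/C24 replicate 4 and at 146 CPM in WT replicate 3, and eIF4G2, the longest member with 9097, was at 116 CPM and 102 CPM in them. eIF-5A, eIF-1A and Ef1beta lay above WT replicates 4 to 6 in X7/C24 replicate 4, in WT replicate 3 and in C24 replicates 2 to 4. eIF-5A reached 787 CPM in X7/C24 replicate 4 and 765 CPM in WT replicate 3, and Ef1beta 479 CPM and 530 CPM. eIF-1A stood at 538 CPM and 480 CPM in the same pair. WT replicate 3, with its lower GAL4, and X7/C24 replicate 4, with its many duplicates, are among the libraries that the study left out, and the part of this in their levels was not tested. The study recorded less cDNA for the X7/C24 and the pilot libraries than for WT replicates 4 to 6, and the part of this in the results was not tested.

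In the 3 libraries set aside the members stood apart. Their median difference from WT replicates 4 to 6 was 0.39 in WT replicate 1, 1.40 in WT replicate 2 and 1.37 in C24 replicate 1. Summed over 12 genes, neuron markers reached 111 to 748 CPM there, against 8403 to 8525 CPM in WT replicates 4 to 6. In WT replicate 2, 34 of 47 members lay above every one of WT replicates 4 to 6 and 12 below. The share of all genes placed in this way was not counted. eIF-3p66 was at 1505 CPM in WT replicate 2 and at 1843 CPM in C24 replicate 1, and Ef1beta at 2286 CPM and 2465 CPM. Against these, eIF5 was at 103 CPM in WT replicate 2 and at 42.7 CPM in C24 replicate 1, Ef1alpha100E at 589 CPM and 538 CPM, and eIF-4B at 104 CPM and 64.6 CPM. In WT replicates 4 to 6 the lowest values of the last 3 genes were 624, 1668 and 322 CPM. The eEF1A ratio was 0.134 in WT replicate 1, 0.152 in WT replicate 2 and 0.202 in C24 replicate 1.

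Genes of the same pathways outside the naming rule were counted in X7/C24 vs WT, where 21.2% of all genes were lower and 21.2% higher. Of 9 other synthetases and synthetase complex proteins 5 fell and none rose, among them LeuRS (CG33123, -0.43 ± 0.05), SerRS (CG17259, -0.26 ± 0.05) and the scaffold AIMP2 (CG12304, -0.21 ± 0.06). CG33123 had 138, 140 and 145 CPM in X7/C24 and 189, 186 and 191 CPM in WT, with no overlap. Of 23 other translation factors 7 fell and 5 rose. The share that rose was near that over all genes, and the share that fell was somewhat above it. Lower were the eIF3 subunits Trip1 (-0.26 ± 0.06) and Int6 (-0.24 ± 0.06), ligatin (eIF2D, -0.32 ± 0.05), CG8549 (-0.37 ± 0.06), HBS1 (-0.27 ± 0.07), pix (-0.20 ± 0.05) and bel (-0.19 ± 0.06). Higher were Thor, Paip2 (0.43 ± 0.08), Rbp2 (eIF4H1, 0.42 ± 0.09), Tctp (0.35 ± 0.09) and Fmr1 (0.24 ± 0.06). Of 8 mitochondrial factors 3 fell, CG12736 (-0.33 ± 0.06), ico (-0.28 ± 0.05) and EfTuM (-0.16 ± 0.04).

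Thor had the largest change on these lists. It stood at 44.1, 53.7 and 48.7 CPM in X7/C24, at 7.83, 9.53 and 7.90 CPM in C24, and at 9.37, 10.9 and 6.94 CPM in WT. X7/C24 replicates 1 to 3 were far above both (2.44 ± 0.14 vs WT, adjusted p = 3.2e-05, edgeR; 2.53 ± 0.12 vs C24). X7/C24 replicate 4 had only 12.1 CPM, and WT replicate 3 had 68.7 CPM. With X7/C24 replicate 4 included, the log2 fold change vs C24 was 2.23 and no longer passed (adjusted p = 0.098, edgeR). Of 17 growth and stress regulators, a list that also holds Thor, 3 rose in X7/C24 vs WT (Thor, Sesn at 0.46 ± 0.10, S6k at 0.19 ± 0.07) and 3 fell (asparagine-synthetase at -0.33 ± 0.05, Tsc1 at -0.25 ± 0.05, PEK at -0.24 ± 0.06). Both counts were below the share over all genes. PEK is one of the kinases that phosphorylate eIF2. The other, Gcn2, was at -0.16 ± 0.08, and crc, the ATF4 homolog whose protein rises with eIF2 phosphorylation, at 0.14 ± 0.07. Their adjusted p was 0.13 and 0.14 by edgeR's test. These are mRNA levels, and neither crc protein nor eIF2 phosphorylation was measured. In X7/C24 vs C24 the lists gave 2 of 9 other synthetases lower (CG33123 and CG4573), 2 of 23 other factors lower (CG8549 and ligatin) with Thor higher, and 1 of 8 mitochondrial factors lower (ico). None was called in C24 vs WT.

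Some lists of cell type markers also held genes called in X7/C24 vs WT, where 21.2% of all genes were lower and 21.2% higher. No list was tested against these shares. All 7 ring gland markers were higher in X7/C24 vs WT, with sums of 1120 to 1524 CPM in X7/C24 and 337 to 417 CPM in WT. X7/C24 replicate 4 summed to 354 CPM and the pilot libraries WT 3 and C24 2 to 4 lay at 655 to 1140 CPM. Of 6 neuroblast markers 5 were lower (mira at -0.37 ± 0.06, wor at -0.29 ± 0.05), a size like that of the synthetases, although the summed list overlapped at 2216 to 2374 CPM in X7/C24 and 1869 to 2540 CPM in WT. The sixth marker, pros, set that overlap (1607 to 1765 CPM in X7/C24, 1132 to 1802 CPM in WT), and the other 5 summed to 566 to 609 CPM in X7/C24 and 737 to 742 CPM in WT. Of 12 neuron markers 4 were higher and none lower (9379 to 10414 CPM in X7/C24, 8403 to 8525 CPM in WT). Their sum was only 5225 CPM in X7/C24 replicate 4 and 5373 to 6840 CPM in the pilot libraries WT 3 and C24 2 to 4, the libraries whose members did not all follow their labels. Of the hemocyte markers 4 of 6 were higher (218 to 418 CPM in X7/C24, 136 to 202 CPM in WT) and of the muscle markers 4 of 8 (32.6 to 51.2 CPM in X7/C24, 26.1 to 32.4 CPM in WT). Of the 6 fat body markers tested 0 were called in X7/C24 vs WT (sums of 241 to 274 CPM in X7/C24, 63.9 to 281 CPM in WT). In X7/C24 vs C24, 3 of the 6 were higher (86.2 to 165 CPM in C24), where 7.59% of all genes were. Midgut markers summed to at most 1.28 CPM in X7/C24 replicates 1 to 3 and to 1.42 to 22.1 CPM in WT, and 1 of the 2 tested was lower in X7/C24 vs WT. Of 9 glia markers 1 was higher and 1 lower in X7/C24 vs WT (1288 to 1486 CPM in X7/C24, 1471 to 1538 CPM in WT). Of 8 imaginal disc markers 2 were higher and none lower. Salivary gland markers had 1 of 6 lower, and none of the 3 testis markers tested was called. The part of these cells in the members' levels was not tested.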

How the data were processed

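mRNA-seq libraries (unstranded, paired-end, poly-A selected) came from pooled larval CNS, with 6 WT, 7 C24 and 4 X7/C24 replicates. The authors filtered reads by quality, aligned them with BWA to BDGP5 with 1 matching position allowed, removed duplicates with SAMTools and counted reads per FlyBase gene with htseq-count in union mode. The deposited values used here are these non-normalized counts. The authors' tables of counts divided by size factors were not used. Genotypes came from sample titles. Replicates are separate tissue pools.

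Pairwise fits used edgeR 4.0.16 in R 4.3.3 (TMM scaling, filterByExpr, glmQLFit and glmQLFTest), with Benjamini-Hochberg adjustment over all genes tested and a threshold of 0.05. Alternatives were DESeq2 1.42.0, limma-voom (limma 3.58.1), other scalings and filters, a joint fit, a term for the library kit set, the replicate block and single libraries left out. The fit was tested on simulated data. For levels, TMM factors were set against WT replicate 4. Exon lengths are BDGP6 exon unions, matched for all 51 members (47 by FlyBase ID, 4 by synonym). In BDGP6, 17 members share exon bases with another gene, 15 of them on the opposite strand only. Without strand such reads cannot be told apart, and this holds for eIF-2alpha, eIF2B-gamma, eIF2B-epsilon, Aats-gln and Aats-cys, among others. Members may all be named. Values for each library were given for members past the threshold without overlap (up to 12 a comparison, by size), the 5 highest by RPKM, paralogs and low-count members, and other genes were named where they passed, besides Thor, crc, Gcn2 and PEK. Members and lists were chosen with earlier results of these data known.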

Additional observations from a re-analysis of the deposited data

Results flagged for a closer look

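Of 46 members with measurable levels, 138 sets of libraries of 1 genotype were looked at, leaving out WT 1, WT 2 and C24 1, and 20 had a library far from the others. Chance flags about 1 in 20. X7/C24 replicate 4 stood above the other 3 X7/C24 libraries for Aats-ala (304 CPM), Aats-arg (141 CPM), Aats-asp (215 CPM), Aats-trp (87.1 CPM), Aats-tyr (142 CPM), eIF-2beta (247 CPM), eIF2B-alpha (32.8 CPM) and eIF6 (78.7 CPM), and below them for Aats-glupro (171 CPM). WT replicate 3 stood above WT replicates 4 to 6 for Aats-asp (222 CPM), Aats-tyr (163 CPM), Ef1beta (530 CPM), Ef1gamma (1273 CPM), eIF-3p40 (361 CPM), eIF2B-alpha (36.2 CPM) and eIF2B-beta (66.5 CPM). It stood below them for Aats-ile (221 CPM), eIF3-S9 (599.5 CPM) and eIF5B (132 CPM). C24 replicate 3 was the lowest C24 library for eIF3-S9 (552 CPM, against 671 to 735 CPM in the other 5). With the 3 libraries that the study set aside included, 74 of 138 sets were marked, 65 of them by one of those libraries.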

How the results depend on the processing

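X7/C24 vs WT kept its count of members called (28) within 1.5 times under every alternative apart from the inclusion of X7/C24 replicate 4, which gave 4 members, 761 genes and a member median of -0.14. The median was -0.25 with total counts and -0.15 with the length trend taken out, an alternative chosen after seeing the data. No member called in the main fits changed sign under an alternative. Of the members not called, 12 of 19 changed sign under at least 1 alternative in X7/C24 vs WT, 10 of 38 in X7/C24 vs C24 and 24 of 47 in C24 vs WT. For the called members, Smn and Thor, the call held in 426 refits and was lost in 54 in X7/C24 vs WT, and it held in 107 and was lost in 69 in X7/C24 vs C24. The other genes named were not refitted one by one. In X7/C24 vs C24 (9 members, 1280 genes), members called were 4 with at least 1 count (eIF4E-5 among them), 2 with the kit set term (752 genes), 17 in the joint fit (2042 genes), 22 with the length trend taken out (2688 genes) and 0 with X7/C24 replicate 4 (33 genes, median -0.092). The median was -0.24 with total counts. With single libraries left out, members called ranged from 0 to 21 and genes from 461 to 2707. C24 vs WT called 0 members throughout. Its 37 genes became 122 by DESeq2, 10 with at least 10 counts in every library, 11 with the kit set term, 81 in the joint fit, 214 without WT 5 and C24 6, 72 with 4 pilot libraries added, 119 with the length trend taken out, and 5 to 27 with single libraries left out. The replicate block gave 14. Libraries with the same number did not deviate together (correlations of -0.22 and -0.28), so the numbers do not pair them. Total-count scaling moved the median of all genes by -0.06 in X7/C24 vs WT. The causes were not tested.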
